A study of Boehmeria nivea with 10 samples.

Results

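The contigs described here are the 200 longest root transcripts of ramie that the assembly placed in no cluster. They were found by keeping the identifiers that start with Unigene, requiring an expected count of at least 10 in each of the 9 separate libraries, and taking the 200 greatest lengths. Of the 40300 contigs listed, 31098 carried no cluster number, 13171 of those passed the count minimum, and the 200 members were drawn from these. They ran from 4534 to 15684 bases with a median of 5602, while the 26747 contigs tested had a median of 1121.

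Ramie, of the nettle family, is a perennial crop grown for its bast fibres that can form roots in water as well as in soil. Roots that form in water develop without the mechanical resistance and the air spaces of soil, and plants commonly change the expression of many genes between these media. With no genome to map to, reads were assembled de novo, and each contig is a reconstructed transcript or a piece of one. Assemblers of this kind put similar contigs, such as alleles, splice forms or close paralogues, into a numbered cluster (CL), and a contig similar to no other is left as a Unigene. A long contig can hold a near full-length transcript of a long gene. No gene name stands beside the identifiers, so no function is given for any contig and no root marker was checked.

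The groups were 3 libraries of late hydroponic roots, from seedlings aged 30 days with their roots in water, 3 of early hydroponic roots, likewise in water but from seedlings aged 5 days, and 3 of terrestrial roots of 30-day-old seedlings in soil. Early hydroponic and terrestrial roots thus differed in both medium and seedling age, and the 2 cannot be told apart in that comparison. The remaining sample of the 10 was a pool used for the assembly and entered no comparison. Listed expected counts summed to between 9499903 and 11522430 per library. Whether the 3 libraries of a group represent different plants is not in the labels, so the p-values measure only the spread among these libraries, part of which may be technical.

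The members were moderately expressed and well counted. Levels are given in FPKM, fragments per kilobase of contig, scaled to the size of the library. The mean FPKM of a member over the 9 libraries ran from 2.79 to 145 with a median of 17.5, against a median of 8.8 over all contigs tested and 15.7 over the other unclustered contigs that passed the count minimum. A mean of at least 10 FPKM was reached by 163 members and one of at least 50 FPKM by 17. A long contig collects more reads than a short one at the same level, and the members were also higher in level and chosen with a count minimum. The median member had a mean count of 1142, while the median contig tested had 104. The lowest count of any member in any library was 13. The SD of log2 FPKM within groups had a median of 0.185 over the members, 0.237 over the other unclustered contigs with the same count minimum and 0.332 over all contigs tested.

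The label of unclustered held for most members in the counts themselves. A count that is not whole shows that reads were divided between contigs. In 173 members (86.5%) the count was whole in all 9 libraries, within 0.001, as in 85.2% of the other eligible unclustered contigs, but in 5.66% of the 159 clustered contigs that were at least as long. Among the members named below, Unigene1028_mixA, Unigene18284_mixA, Unigene23641_mixA and Unigene24186_mixA had a whole count in 0 of the 9 libraries, so their levels rest partly on how shared reads were divided. The same holds in part for Unigene1196_mixA, Unigene17525_mixA, Unigene3964_mixA and Unigene1361_mixA, whose counts were whole in 2, 3, 5 and 6 libraries.

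As a set, the members took a larger part of the RNA in terrestrial roots than in either kind of hydroponic root. They held 2.83, 2.69 and 2.24% of the listed counts in the 3 late hydroponic libraries, 2.84, 2.48 and 2.19% in the early hydroponic ones and 3.99, 3.83 and 3.96% in the terrestrial ones. The means were 2.59 ± 0.308% in late hydroponic, 2.5 ± 0.326% in early hydroponic and 3.93 ± 0.085% in terrestrial roots (SD, n = 3 each). The terrestrial libraries lay close together and above all 6 hydroponic libraries, and the 2 hydroponic groups overlapped. As a share of all FPKM, which weighs every contig per length, the members held 0.478 to 0.602% in late hydroponic, 0.472 to 0.623% in early hydroponic and 0.855 to 0.895% in terrestrial libraries. In a bulk sample, fewer cells that express a transcript and less of that transcript per cell cannot be told apart.

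**Figure D1:**
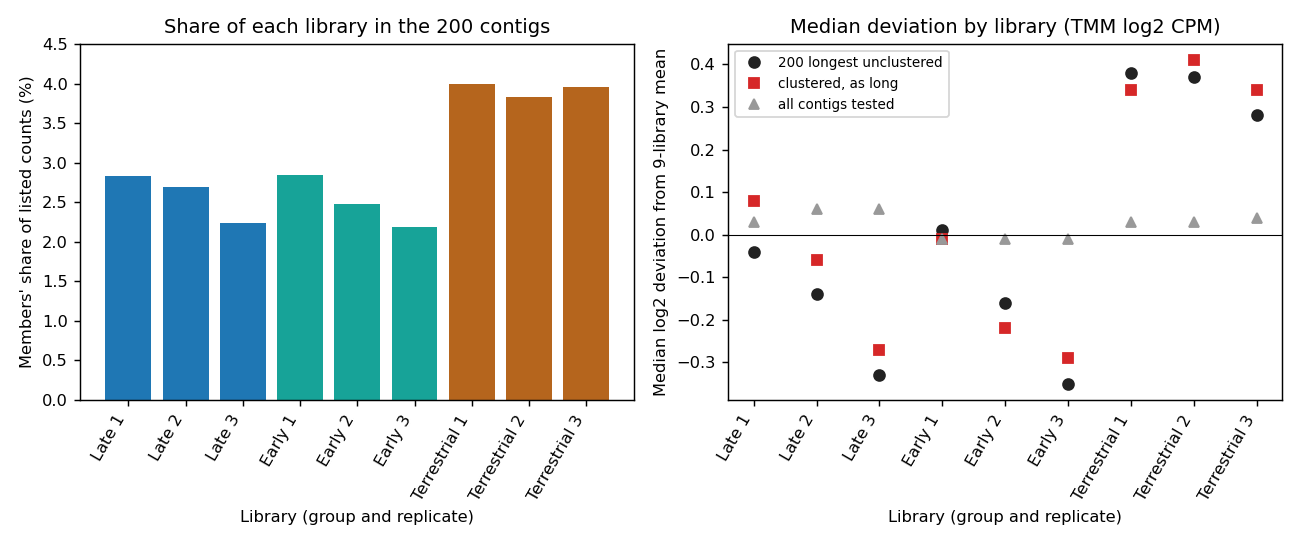
Left, the share of listed expected counts held by the 200 members in each library, in percent; right, the median over contigs of the log2 deviation from the 9-library mean (TMM-scaled log2 CPM) for the members, for 159 clustered contigs of the same lengths and for all contigs tested. The 3 terrestrial libraries stand above the 6 hydroponic libraries for both sets of long contigs, at 0.28 to 0.38 for the members, while all contigs tested stay between -0.01 and 0.06.

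The median member stood at 16.0, 15.6 and 13.0 FPKM in the late hydroponic libraries, 14.9, 13.7 and 12.2 FPKM in the early hydroponic ones and 22.9, 22.0 and 21.8 FPKM in the terrestrial ones. Relative to its own mean over the 9 libraries, on the TMM-scaled log2 scale, the median member lay at -0.04, -0.14 and -0.33 in late hydroponic, at 0.01, -0.16 and -0.35 in early hydroponic and at 0.38, 0.37 and 0.28 in terrestrial libraries. In each of the 3 groups replicate 3 was the lowest by both measures, and the 3 terrestrial libraries were the highest of the 9. Members below their own mean numbered 115, 154 and 170 in the late hydroponic libraries, 97, 139 and 158 in the early hydroponic ones and 42, 46 and 43 in the terrestrial ones.

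The members also moved together within groups. The deviations of 2 members from their group means correlated at 0.477 on average over the 9 libraries. Between clustered contigs of the same lengths the average was 0.19. Between the 12971 other eligible unclustered contigs it was 0.00209. TMM scaling centres each library on the bulk of contigs, which holds so large a set near 0 largely by construction. Unclustered contigs of 3001 to 4531 bases also drifted by replicate. Their median deviations were -0.02, -0.05 and -0.16 in late hydroponic and 0.06, -0.05 and -0.14 in early hydroponic libraries. This is a description across contigs of the same libraries, and members are therefore not independent observations of a condition.

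Late hydroponic roots were compared with terrestrial roots at the same seedling age. Most members that differed were lower in water: 111 (55.5%) fell and 19 (9.5%) rose in late hydroponic roots by edgeR (quasi-likelihood F test, Benjamini-Hochberg adjusted p under 0.05 over 26747 contigs). Over all contigs tested, 24.2% fell and 28.7% rose, and 52.9% were called in either direction, against 65% of the members. The median change was -0.50 on the log2 scale for the members and 0.02 for all contigs tested. The median change was -0.72 among the members that fell and 1.71 among those that rose, against -1.23 and 1.58 among all contigs called. Among the called of the other unclustered contigs with the same count minimum these medians were -0.98 and 1.15. The members' falls were thus shallower by their median than those of either set. Their rises, in 19 members, were near those of all contigs called and larger than those of the unclustered set. A log2 change of at least 1 was reached by 24 that fell (12%) and 14 that rose (7%), against 15.2 and 20.6% of all contigs tested. By FPKM, 140 members (70%) had every late hydroponic library below every terrestrial one and 19 had every one above, against 32.7 and 29.2% of all contigs tested.

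The deepest fall among the members called was that of Unigene26820_mixA (6306 bases). It had 24.0, 25.9 and 13.9 FPKM in late hydroponic, 15.3, 14.5 and 10.3 FPKM in early hydroponic and 113, 101 and 103 FPKM in terrestrial roots. No hydroponic library came near a terrestrial one. The log2 change was -2.23 (SE 0.24, adjusted p = 0.000153 by edgeR) in late hydroponic and -2.75 (SE 0.25, adjusted p = 3.94e-05) in early hydroponic roots, both against terrestrial. Unigene3964_mixA (5745 bases) had 10.9, 11.5 and 7.44 FPKM in late hydroponic, 7.02, 6.35 and 5.56 FPKM in early hydroponic and 35.5, 41.8 and 31.3 FPKM in terrestrial roots. Its groups did not overlap, and late hydroponic roots fell by 1.78 on the log2 scale against terrestrial ones (SE 0.19, adjusted p = 0.000146 by edgeR).

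The next in depth were Unigene3047_mixA and Unigene18326_mixA. Unigene3047_mixA (6261 bases) had 5.28, 6.31 and 3.71 FPKM in late hydroponic roots, against 16.1, 14.2 and 15.6 FPKM in terrestrial roots, a log2 change of -1.50 (SE 0.18, adjusted p = 0.000254 by edgeR). Unigene18326_mixA (5086 bases) had 27.6, 25.03 and 20.5 FPKM in late hydroponic roots, against 66.2, 87.0 and 65.6 FPKM in terrestrial roots, a log2 change of -1.49 (SE 0.18, adjusted p = 0.000264 by edgeR). In both, every late hydroponic library lay below every terrestrial one by a wide gap. A lack of overlap between the compared groups was itself required for naming the largest falls and rises.

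The 4 members with the largest rises in late hydroponic roots were low in soil. Unigene31073_mixA (4831 bases) had 10.8, 10.4 and 9.96 FPKM in late hydroponic, 15.0, 10.4 and 13.2 FPKM in early hydroponic and 1.44, 1.03 and 2.15 FPKM in terrestrial roots. The groups in water overlapped, and both stood far above soil: the log2 change of late hydroponic against terrestrial was 2.85 (SE 0.24, adjusted p = 5.61e-05 by edgeR). Unigene1196_mixA (4571 bases), the most abundant of the 4 in water, had 37.3, 39.6 and 48.9 FPKM in late hydroponic, 76.0, 70.6 and 72.7 FPKM in early hydroponic and 5.2, 4.09 and 10.6 FPKM in terrestrial roots. It rose by 2.77 in late hydroponic against terrestrial roots (log2; SE 0.32, adjusted p = 0.00022 by edgeR). The 3 groups of this contig did not overlap, although late against early hydroponic missed the threshold at a log2 change of -0.94 (adjusted p = 0.068 by edgeR).

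Unigene29476_mixA (4576 bases) had 5.31, 4.67 and 5.81 FPKM in late hydroponic, 8.19, 5.59 and 7.16 FPKM in early hydroponic and 1.16, 0.53 and 0.96 FPKM in terrestrial roots. It rose by 2.67 in late hydroponic against terrestrial roots (log2; SE 0.28, adjusted p = 0.000128 by edgeR). Unigene31282_mixA (5087 bases) was the lowest of these in soil, with 3.18, 3.28 and 2.18 FPKM in late hydroponic, 7.26, 5.85 and 5.86 FPKM in early hydroponic and 0.56, 0.24 and 0.79 FPKM in terrestrial roots. Its groups stood in steps, soil lowest and early hydroponic highest, and late hydroponic roots rose by 2.54 against terrestrial ones (log2; SE 0.35, adjusted p = 0.000512 by edgeR).

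**Figure D2:**
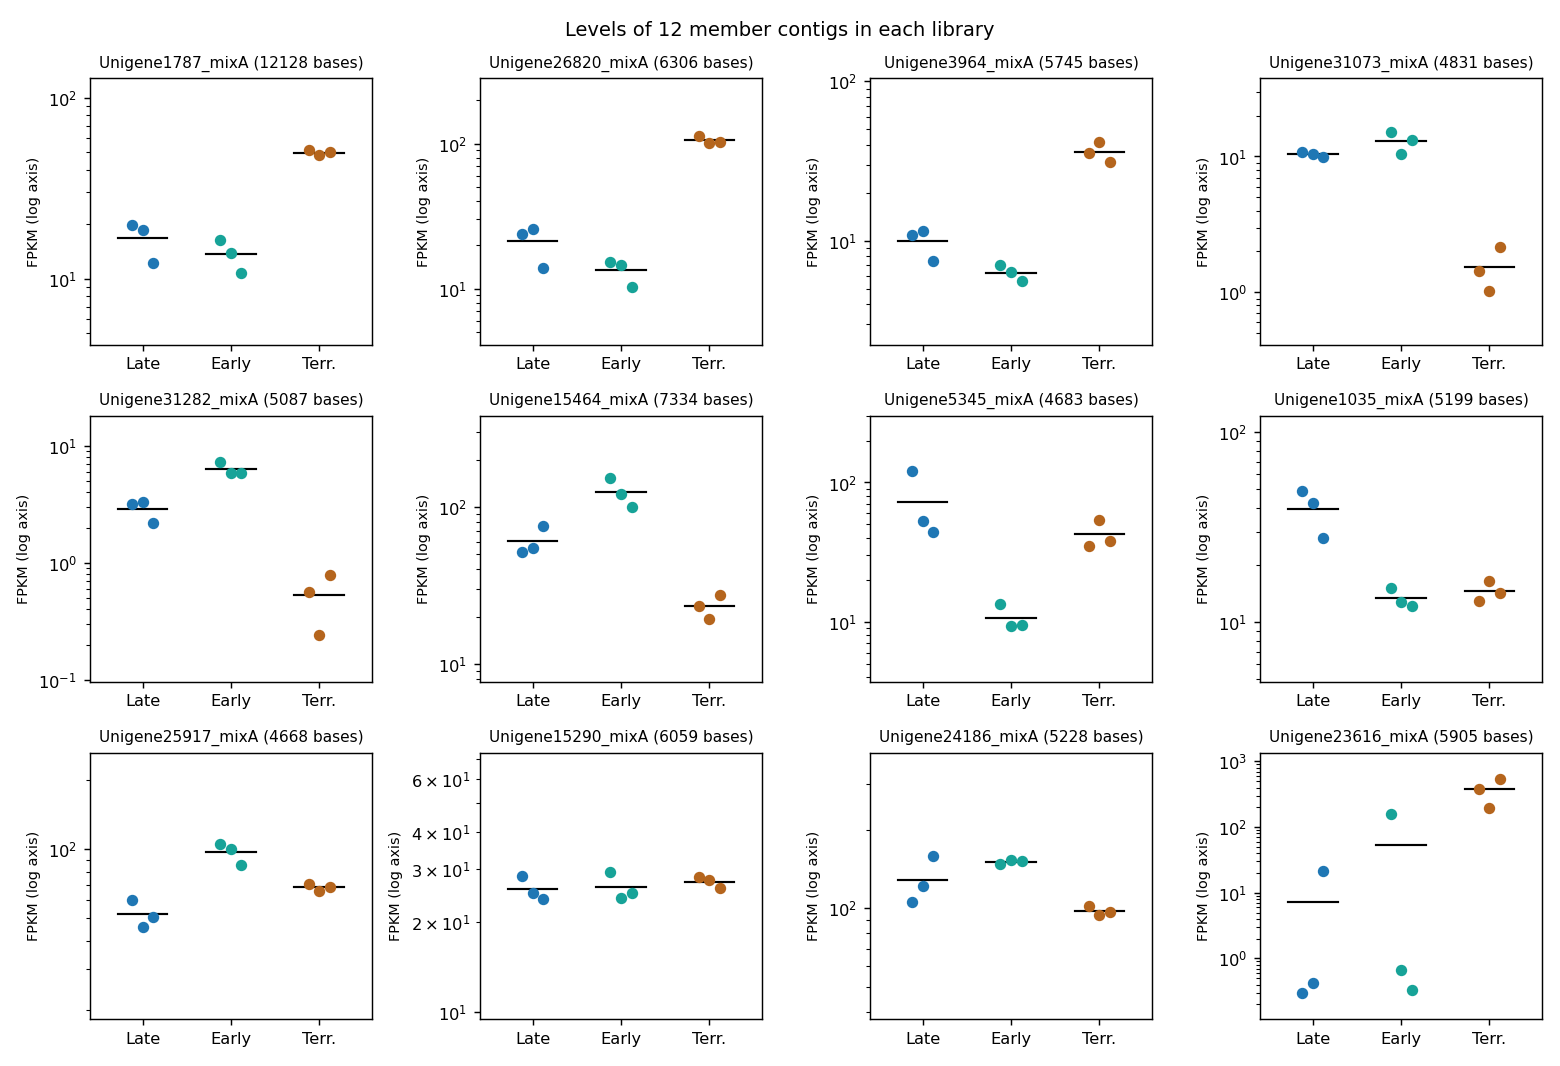
FPKM of 12 members in each library on log axes, with late hydroponic, early hydroponic and terrestrial (Terr.) roots from left to right; points are the 3 libraries of a group and lines their mean. Unigene26820_mixA is high in soil alone at a mean of 106 FPKM, Unigene31073_mixA low there at 1.54 FPKM, Unigene15290_mixA level throughout, and Unigene23616_mixA scattered within the hydroponic groups.

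Early hydroponic roots were set against terrestrial roots in the same fit and with the same terrestrial libraries, so the 2 comparisons share their controls. Of the members, 124 (62%) fell and 30 (15%) rose in early hydroponic roots by edgeR's test, against 31.0 and 30.1% of all contigs tested; in either direction, 77% of the members and 61.1% of all contigs were called. The median change was -0.50 for the members and -0.09 for all contigs tested, on the log2 scale. Among the called members the median was -0.76 for the falls and 1.18 for the rises, against -1.44 and 1.64 among all contigs called. Among the called of the other unclustered contigs with the same count minimum it was -1.10 and 1.23. By a log2 change of at least 1, 33 members fell and 16 rose, against 21.8 and 22.3% of all contigs. By FPKM, 146 members lay wholly below soil and 25 wholly above, against 43.3 and 29.1% of all contigs.

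The largest rises in early hydroponic against terrestrial roots were those of Unigene31282_mixA at 3.82 (SE 0.36, adjusted p = 5.19e-05 by edgeR), Unigene1196_mixA at 3.71, Unigene31073_mixA at 3.30 and Unigene29476_mixA at 3.22 on the log2 scale. Their fitted folds were 14.1, 13.1, 9.87 and 9.30. In late hydroponic against terrestrial roots the folds of these 4 were 5.81, 6.83, 7.21 and 6.38. Both folds of Unigene31282_mixA rest on 31, 13 and 43 counts in the terrestrial libraries, and 13 was the lowest count of any member. The deepest falls in early hydroponic roots were those of Unigene26820_mixA, given above, Unigene3964_mixA at -2.29 (SE 0.19, adjusted p = 3.17e-05 by edgeR), Unigene5345_mixA at -1.77 and Unigene2742_mixA at -1.65. Unigene2742_mixA (7427 bases) had 14.7, 14.1 and 8.56 FPKM in late hydroponic, 10.03, 8.62 and 8.33 FPKM in early hydroponic and 33.2, 32.3 and 33.8 FPKM in terrestrial roots. Its terrestrial libraries lay close together and above all others, and its changes against soil were -1.32 in late hydroponic (adjusted p = 0.00052 by edgeR) and -1.65 in early hydroponic roots (adjusted p = 0.00012).

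Late and early hydroponic roots, the comparison of development in water, differed in few members. By edgeR's test 5 (2.5%) rose and 15 (7.5%) fell in late hydroponic roots, against 8.37 and 6.3% of all contigs tested, and 10% of the members were called against 14.7% of all contigs. The median change was -0.02 on the log2 scale for the members and 0.04 for all contigs. A log2 change of at least 1 was reached by 2 that rose and 4 that fell, all named below, against 6.14 and 3.19% of all contigs. By FPKM, 30 members (15%) had every late hydroponic library above every early one and 26 (13%) had every one below, against 26.3 and 13.2%. The balance of directions in this comparison depended on the scaling. With library totals alone in place of TMM, which moved the median of all contigs tested to 0.18, 16 members were called higher and 7 lower. Without late hydroponic replicate 3 or terrestrial replicate 2 the count became 32, and without late hydroponic replicate 1, early hydroponic replicate 1 or early hydroponic replicate 2 it became 9, 8 and 9. Shares of all contigs called under these alternatives are not given here.

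The member with the largest rise in late hydroponic roots was Unigene5345_mixA (4683 bases). It had 121, 53.3 and 43.9 FPKM in late hydroponic, 13.3, 9.25 and 9.47 FPKM in early hydroponic and 35.2, 54.1 and 38.2 FPKM in terrestrial roots. Early hydroponic roots stood below both other groups, and late hydroponic replicate 1 above all other libraries. Late hydroponic roots rose by 2.63 against early hydroponic ones (log2; SE 0.41, adjusted p = 0.00647 by edgeR), while the change of 0.86 against terrestrial roots missed the threshold (adjusted p = 0.0908). Unigene1035_mixA (5199 bases) was the one member whose 3 late hydroponic libraries lay above the other 6. It had 48.9, 42.3 and 27.7 FPKM in late hydroponic, 15.1, 12.8 and 12.1 FPKM in early hydroponic and 12.9, 16.6 and 14.3 FPKM in terrestrial roots. Its change was 1.43 against early hydroponic (SE 0.21, adjusted p = 0.00529 by edgeR) and 1.53 against terrestrial roots (adjusted p = 0.000489).

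Unigene15475_mixA (5050 bases) and Unigene4146_mixA (9927 bases) were low in early hydroponic roots. Unigene15475_mixA had 47.4, 32.9 and 22.3 FPKM in late hydroponic, 17.4, 13.8 and 15.7 FPKM in early hydroponic and 45.8, 39.5 and 51.3 FPKM in terrestrial roots. Its late hydroponic libraries spread widely, and its rise of 0.98 against early hydroponic roots (log2; adjusted p = 0.0311 by edgeR) passed the threshold narrowly; the call was lost in 7 of the 9 fits that left out 1 library, with the exceptions of late hydroponic replicate 3 and terrestrial replicate 2 (adjusted p up to 0.105 by edgeR). Unigene4146_mixA had 11.9, 9.97 and 9.69 FPKM in late hydroponic, 6.69, 5.24 and 5.57 FPKM in early hydroponic and 12.01, 9.85 and 12.3 FPKM in terrestrial roots. Late hydroponic roots overlapped terrestrial ones and rose by 0.71 against early hydroponic ones (log2; SE 0.14, adjusted p = 0.0136 by edgeR), a call lost without early hydroponic replicate 2 or 3 (adjusted p = 0.0561 and 0.0577). The fifth member that rose, Unigene25920_mixA, is outside the rule for named contigs and was singled out after its values were seen. Its means were 5.01 FPKM in late hydroponic, 3.19 in early hydroponic and 6.39 in terrestrial roots.

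Of the 15 members that fell in late against early hydroponic roots, Unigene15464_mixA (7334 bases) was the most abundant in early hydroponic roots among the named ones. It had 51.4, 55.1 and 75.7 FPKM in late hydroponic, 153, 122 and 100 FPKM in early hydroponic and 23.5, 19.2 and 27.4 FPKM in terrestrial roots. The 3 groups did not overlap, early hydroponic being highest and soil lowest. The change of late against early hydroponic was -1.18 (log2; SE 0.22, adjusted p = 0.0125 by edgeR), and those against terrestrial roots were 1.48 in late hydroponic and 2.66 in early hydroponic (adjusted p = 0.00082 and 3.79e-05 by edgeR). Unigene25917_mixA (4668 bases) had 60.2, 45.7 and 50.6 FPKM in late hydroponic, 105, 101 and 85.4 FPKM in early hydroponic and 70.9, 65.9 and 68.6 FPKM in terrestrial roots. Early hydroponic roots lay above soil and late hydroponic roots below it with no overlap by FPKM; late against early hydroponic changed by -1.04 (log2; SE 0.15, adjusted p = 0.00471 by edgeR), while late hydroponic against terrestrial missed the threshold at -0.30 (adjusted p = 0.12).

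The calls of Unigene31282_mixA and Unigene2019_mixA between the hydroponic stages were less firm. Unigene31282_mixA changed by -1.28 in late against early hydroponic roots (log2; SE 0.32, adjusted p = 0.0318 by edgeR), and the call was lost without any 1 of the 5 libraries late hydroponic 1 and 2 and early hydroponic 1, 2 and 3 (adjusted p of 0.0685 to 0.106 by edgeR). Unigene2019_mixA (4747 bases) had 3.74, 5.41 and 5.12 FPKM in late hydroponic, 10.1, 8.79 and 7.47 FPKM in early hydroponic and 7.27, 4.56 and 9.5 FPKM in terrestrial roots, with terrestrial libraries overlapping both groups. It changed by -1.03 in late against early hydroponic roots (log2; SE 0.25, adjusted p = 0.0299 by edgeR), and the call was lost without any 1 of the same 5 libraries (adjusted p of 0.0552 to 0.102 by edgeR).

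**Figure D3:**
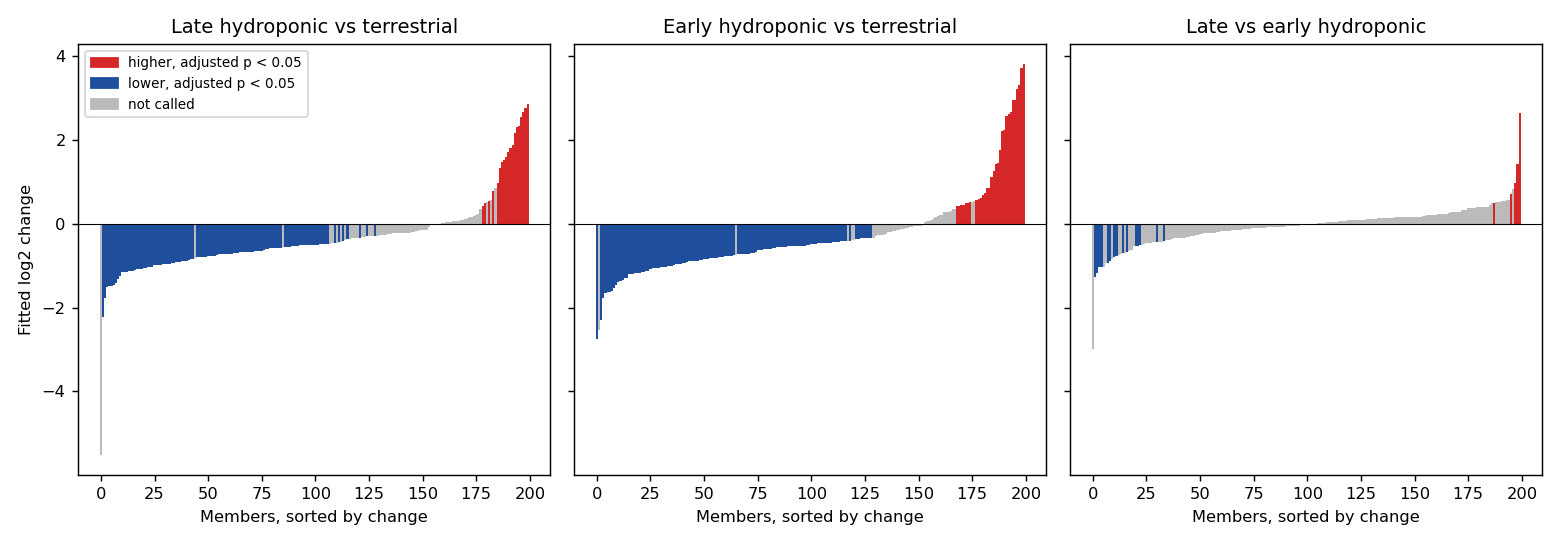
Fitted log2 change of each of the 200 members in the 3 comparisons, members sorted by change within each panel; red and blue bars passed an adjusted p of 0.05 by edgeR and grey bars did not. Against terrestrial roots 111 members fell and 19 rose in late hydroponic roots and 124 fell and 30 rose in early hydroponic roots, while 180 of the 200 were not called between late and early hydroponic roots.

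Taking the 3 groups at once, 156 members (78%) differed among them by edgeR's test, against 64.3% of all contigs tested. The mean FPKM was highest in terrestrial roots for 158 members (79%, against 48.6% of all contigs), in early hydroponic roots for 32 and in late hydroponic roots for 10. The commonest order of mean FPKM, in 121 members and in 9843 of the 26747 contigs tested, was terrestrial above late hydroponic above early hydroponic, and 37 members had terrestrial above early above late hydroponic. With TMM scaling the order of the hydroponic groups was balanced: the fitted change of late against early hydroponic was negative in 104 members and positive in 96. All 3 terrestrial libraries lay above the 6 hydroponic ones in 133 members (66.5%), against 30.0% of all contigs, and below them in 17 (8.5%), against 22.6%. Early hydroponic roots stood below the other 6 libraries in 28 members and above them in 14, that is 14 and 7%, against 17.6 and 9.81% of all contigs. Late hydroponic roots stood below in 10 and above in 1, that is 5 and 0.5%, against 2.59 and 7.45%. FPKM carries no TMM scaling, which in this series moves early hydroponic levels up relative to both other groups.

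Since the members were chosen for length, their change against soil was set beside that of other length classes. Among unclustered contigs, the median log2 change of late hydroponic against terrestrial roots was -0.33 for the 5043 contigs of up to 500 bases, 0.14 at 501 to 1000 bases, 0.20 at 1001 to 2000 bases, 0.02 at 2001 to 3000 bases, -0.18 from 3001 bases up to the next class and -0.50 for the 202 of at least 4534 bases. Early hydroponic against terrestrial gave -0.67, -0.05, 0.18, 0.02, -0.17 and -0.49 in the same classes. The middle lengths were thus highest, and both the shortest and the longest contigs were low. Between late and early hydroponic roots the 5 classes above 500 bases lay between -0.04 and 0.07. Clustered contigs of at least 4534 bases had medians of -0.37 in late hydroponic and -0.49 in early hydroponic against terrestrial roots, so the pattern was not confined to contigs without a cluster. Among these 159 clustered contigs 49 fell and 13 rose in late hydroponic roots, and 64 fell and 18 rose in early hydroponic roots. The part of length in the members' calls was not tested.

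**Figure D4:**
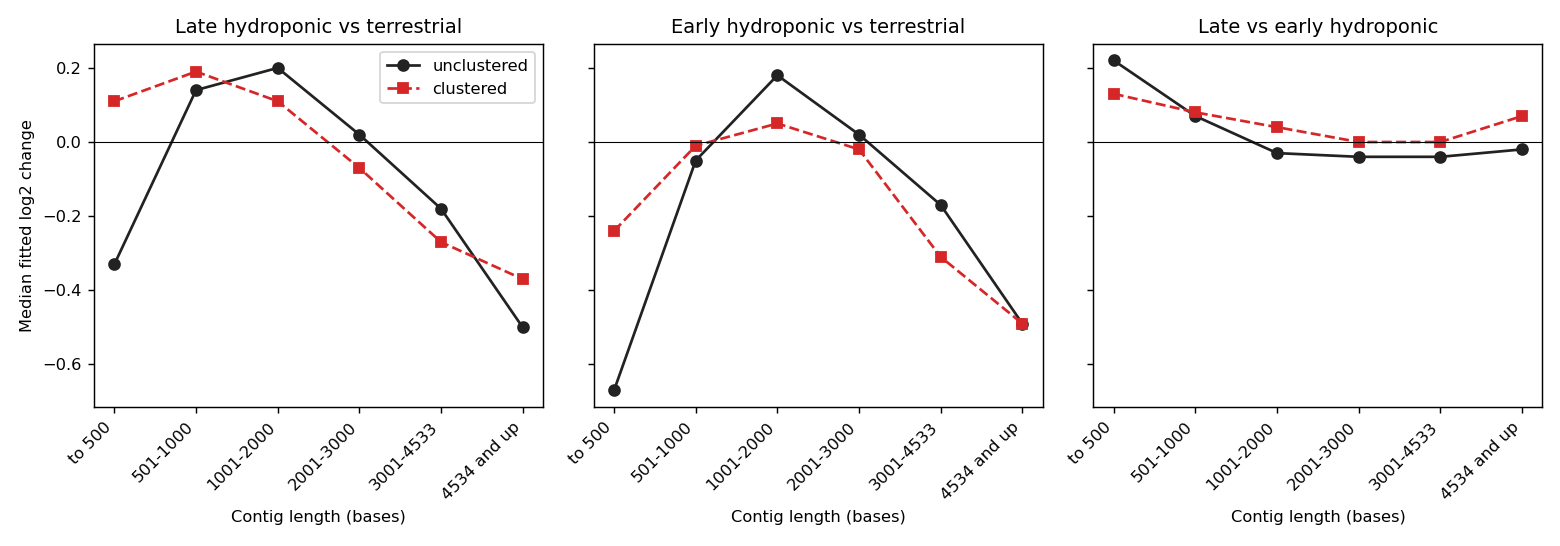
Median fitted log2 change by contig length class, in bases, in the 3 comparisons, for unclustered contigs (black circles) and clustered contigs (red squares). Against terrestrial roots the medians of both kinds decline from the middle lengths to -0.50 and -0.37 (late hydroponic) and to -0.49 for both kinds (early hydroponic) at 4534 bases and up, while late against early hydroponic stays near 0 beyond 500 bases.

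Setting each library's median within each of 6 length classes to the same value, an alternative chosen after the data were seen, removes the members' shared shift by construction. Under it 55 members were higher and 48 lower in late hydroponic against terrestrial roots, and 62 were higher and 57 lower in early hydroponic against terrestrial roots. Shares of all contigs called under it are not given here. All 19 and all 30 rises stayed called, while 48 of the 111 falls and 57 of the 124 falls did. The other 63 falls in late hydroponic and 67 in early hydroponic roots were not called under it. The alternative moved the members' median change against soil up, to -0.01 in late and 0.01 in early hydroponic roots. This favours rises and works against falls, so how many of each stayed called cannot be compared. Among members the relation to length was weak: over the 200, Spearman's rho of length was -0.15 with the late hydroponic against terrestrial change, -0.14 with the early hydroponic against terrestrial change, 0.015 with the late against early hydroponic change and 0.062 with mean FPKM. In the 50 longest members (6467 bases and up) 35 fell and 4 rose in late hydroponic against terrestrial roots; in the 50 shortest (4931 bases and down) 25 fell and 7 rose.

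The members' counts were also high, and higher counts allow smaller differences to be called, so they were read against contigs of like count. Among contigs with a mean count of 1000 to 2000, 44 of 74 members (59.5%) fell in late hydroponic against terrestrial roots, against 31.4% of all 1432 contigs tested in that band. With a mean count of at least 2000 the shares were 51.2% of 43 members and 25% of 904 contigs. With 500 to 1000 they were 59.3% of 59 members and 30.5% of 2581 contigs. In each of these 3 bands the share of members that rose was lower than that of all contigs, for example 2.7 against 40.1% at 1000 to 2000 counts. In the remaining band, 100 to 500 counts, 10 of 24 members fell and 8 rose, that is 41.7 and 33.3%, against 25.5 and 32.3% of all contigs there.

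All 5 of the longest members had a lower fitted level in both hydroponic groups than in soil, with different firmness. Unigene1028_mixA (15684 bases), the longest contig of all, had 33.4, 26.0 and 22.4 FPKM in late hydroponic, 30.3, 23.9 and 19.98 FPKM in early hydroponic and 36.2, 31.8 and 37.7 FPKM in terrestrial roots, and was called in neither comparison with soil (log2 changes of -0.27, adjusted p = 0.267 and 0.255 by edgeR). With library totals alone early hydroponic against terrestrial was called at -0.51 (adjusted p = 0.0463 by edgeR). Limma also called it on log2(FPKM + 1), with the filter (adjusted p = 0.0358) and without it (0.0447), and on log2(FPKM + 0.1) (0.0377). Unigene1787_mixA (12128 bases) had 19.7, 18.6 and 12.2 FPKM in late hydroponic, 16.4, 13.9 and 10.8 FPKM in early hydroponic and 51.2, 48.1 and 50 FPKM in terrestrial roots. It stood well below soil in every hydroponic library, by -1.48 in late hydroponic (SE 0.21, adjusted p = 0.000535 by edgeR) and by -1.62 in early hydroponic roots (adjusted p = 0.000227). Unigene5583_mixA (11249 bases) had 12.2, 10.9 and 7.44 FPKM in late hydroponic, 9.7, 8.56 and 7.08 FPKM in early hydroponic and 23.8, 22.0 and 21.6 FPKM in terrestrial roots, and fell by 1.05 and 1.17 on the log2 scale in late and in early hydroponic roots (adjusted p = 0.00189 and 0.000782 by edgeR).

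Unigene23945_mixA (11504 bases) averaged 40.1 ± 6.36 FPKM in late hydroponic, 38.0 ± 6.73 in early hydroponic and 66.5 ± 1.64 in terrestrial roots (SD, n = 3 each). Its changes against soil were -0.64 and -0.57 (adjusted p = 0.0109 and 0.0148 by edgeR); the early hydroponic call was lost without early hydroponic replicate 3 (adjusted p = 0.0566) or terrestrial replicate 1 (adjusted p = 0.0536), and both calls with length-class medians removed. Unigene4314_mixA (12120 bases) averaged 23.1 ± 3.65 FPKM in late hydroponic, 18.6 ± 3.47 in early hydroponic and 31.5 ± 3.6 in terrestrial roots (SD, n = 3 each). Late hydroponic against terrestrial missed the threshold at -0.36 (adjusted p = 0.115 by edgeR). Early hydroponic against terrestrial passed it at -0.52 (adjusted p = 0.0279 by edgeR), a call lost without any 1 of 5 libraries in turn: late hydroponic replicate 2, early hydroponic replicates 2 and 3, and terrestrial replicates 1 and 3 (adjusted p up to 0.115). It was also lost with no filter on low counts (adjusted p = 0.0542 by edgeR), and with length-class medians removed the change was -0.02 (adjusted p = 0.878).

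The 4 most abundant members did not share a pattern. Unigene23616_mixA (5905 bases), at the highest mean of 145 FPKM, had 0.30, 0.42 and 21.3 FPKM in late hydroponic, 161, 0.67 and 0.33 FPKM in early hydroponic and 385, 198 and 542 FPKM in terrestrial roots. Every terrestrial library was above every hydroponic one, but single libraries of both hydroponic groups were far from the others, with an SD of log2 FPKM within groups of 3.47 where the next member had 0.57. It was not called in any comparison (late hydroponic against terrestrial -5.52, adjusted p = 0.0917 by edgeR; early hydroponic against terrestrial -2.54, adjusted p = 0.333; late against early hydroponic -2.98, adjusted p = 0.399). Without late hydroponic replicate 3 the first change was -9.95 (adjusted p = 0.0361 by edgeR), and without early hydroponic replicate 1 the second was -9.28 (adjusted p = 0.0138). Limma voom gave -7.83 and -6.47 for these 2 changes and called both (adjusted p = 0.0217 and 0.017), and DESeq2 called the first (adjusted p = 0.0145).

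Unigene24186_mixA (5228 bases) had 105, 121 and 158 FPKM in late hydroponic, 148, 153 and 152 FPKM in early hydroponic and 102, 94.0 and 96.8 FPKM in terrestrial roots. Both hydroponic groups lay above soil, early hydroponic by 0.86 (log2; SE 0.16, adjusted p = 0.00188 by edgeR) and late hydroponic by 0.49 (adjusted p = 0.0319). The late hydroponic call was lost without late hydroponic replicate 3 and without each terrestrial replicate in turn (adjusted p of 0.0682 to 0.104 by edgeR). It was also lost by edgeR with library totals alone (adjusted p = 0.0554), upper quartile scaling (0.071) and a minimum of 50 counts in 3 libraries (0.0586), and by limma on log2(FPKM + 1) (0.0552). Without late hydroponic replicate 3, late against early hydroponic was called at -0.66 (adjusted p = 0.00887 by edgeR). Unigene18284_mixA (7477 bases) had 157, 160 and 96.0 FPKM in late hydroponic, 139, 118 and 90.2 FPKM in early hydroponic and 45.8, 24.5 and 50.4 FPKM in terrestrial roots, rising by 1.87 and 1.77 on the log2 scale against soil (adjusted p = 0.00111 and 0.00109 by edgeR). Unigene23641_mixA (5494 bases) went the other way, with 80.9, 87.4 and 60.5 FPKM in late hydroponic, 53.7, 52.7 and 40.8 FPKM in early hydroponic and 160, 164 and 150 FPKM in terrestrial roots. It fell by 0.96 and 1.45 on the log2 scale against soil (adjusted p = 0.00159 and 0.00014 by edgeR).

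At the other end, 62 members varied by less than 1 on the log2 scale of FPKM over all 9 libraries, where the median range was 1.21, and 44 were not called by the 3-group test. The narrowest was Unigene15290_mixA (6059 bases), with 28.5, 25 and 23.8 FPKM in late hydroponic, 29.3, 24.1 and 24.99 FPKM in early hydroponic and 28.2, 27.6 and 26.0 FPKM in terrestrial roots, a range of 0.30. Its groups overlapped in each comparison. Unigene23905_mixA (5713 bases) ranged over 0.40 and lay between 18.7 and 24.7 FPKM, yet early hydroponic against terrestrial was called at 0.42 (adjusted p = 0.00968 by edgeR); with library totals alone it was 0.18 (adjusted p = 0.172). Unigene2283_mixA (6719 bases) ranged over 0.45, between 14.0 and 19.1 FPKM, and was called in no comparison of the main fit (adjusted p of 0.068 to 0.996 by edgeR). DESeq2, however, called early hydroponic against terrestrial at 0.33 (adjusted p = 0.0255). So did edgeR with DESeq2 size factors (adjusted p = 0.0437) and with no filter on low counts (0.0412). EdgeR also called it without late hydroponic replicate 3, early hydroponic replicate 3 or terrestrial replicate 1 (adjusted p of 0.0282 to 0.0421). Removing length-class medians moves the members' changes against soil up. Under it Unigene15290_mixA was 0.50 higher in late hydroponic and 0.68 higher in early hydroponic than in terrestrial roots (adjusted p = 0.00261 and 0.000384 by edgeR). Unigene2283_mixA was 0.50 and 0.80 higher (adjusted p = 0.00459 and 0.000287 by edgeR).

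Just inside the length threshold, Unigene17525_mixA (4543 bases), Unigene25745_mixA (4542 bases) and Unigene17426_mixA (4534 bases) changed by -0.75, 0.02 and -0.95 on the log2 scale in late hydroponic against terrestrial roots. Just outside, Unigene2061_mixA (4531 bases), Unigene26796_mixA (4529 bases) and Unigene15829_mixA (4526 bases) changed by -0.15, -1.46 and 2.73. Their mean FPKM over the 9 libraries was 19.6, 13.1 and 24.4 inside and 30.1, 32.2 and 8.44 outside.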

How the data were processed

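The 9 libraries came with a table each, which held per contig its length, its expected count and its FPKM, per the file headers. The deposited expected counts can be fractional, where reads were divided among contigs. For longer contigs the deposited FPKM values are close to such counts per kilobase of contig and library size. The library size they implied was 1.01 times the listed counts at 1000 to 3000 bases and 1.02 times at 4534 to 15684 bases. At 200 to 250 bases it was 0.873 times, so FPKM there was higher than this formula gives. Counts and FPKM were both quantified against contigs assembled de novo from the pool, per the design text. The assembler, aligner and counting program are not given in the sources used here. Totals of 9499903 to 11522430 listed counts set the precision; a contig unlisted in a library was entered as 0.

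Expected counts were rounded and tested with edgeR 4.0.16 (R 4.3.3): filterByExpr with a minimum count of 10 (26747 contigs kept, all 200 members among them), TMM scaling, robust quasi-likelihood fits of the 3 groups with 6 residual degrees of freedom, and Benjamini-Hochberg adjustment over all contigs kept. A contig was called at an adjusted p under 0.05. Standard errors (SE) are the absolute log2 change over the square root of the F statistic. The scripts were tested on simulated data. Summaries used pandas 2.3.3 and figures Matplotlib 3.10.9, in Python 3.11.15.

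Named members were, per comparison, the 4 highest and 4 lowest changes among called members whose groups did not overlap by FPKM, the 5 longest, the 4 most abundant, the 3 with the narrowest range, and the 3 on either side of the length threshold. Members, lists and rules were chosen with earlier results of these data known. Alternatives were other scalings and filters, DESeq2 1.42.0, limma 3.58.1 (voom, and log2 of FPKM plus 1 or 0.1), a 1.5-fold minimum (glmTreat), a replicate block, each library left out, and length-class medians removed. The pool was left out, and no annotation or sequence of the contigs was used here.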

Additional observations from a re-analysis of the deposited data

Results flagged for a closer look

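A direct test of late against early hydroponic roots, edgeR's quasi-likelihood test, called 20 members, of which 19 also had no overlap between these groups by FPKM. The 8 given here are the 4 highest and the 4 lowest changes among those 19. On the log2 scale the changes were 2.63 for Unigene5345_mixA, 1.43 for Unigene1035_mixA, 0.98 for Unigene15475_mixA and 0.71 for Unigene4146_mixA, which were higher in late hydroponic roots. They were -1.28 for Unigene31282_mixA, -1.18 for Unigene15464_mixA, -1.04 for Unigene25917_mixA and -1.03 for Unigene2019_mixA, which were lower there.

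Among those higher in late hydroponic roots, Unigene5345_mixA, Unigene15475_mixA and Unigene4146_mixA had their lowest mean in early hydroponic roots and Unigene1035_mixA had overlapping libraries in early hydroponic and terrestrial roots. Among those lower in late hydroponic roots, Unigene31282_mixA and Unigene15464_mixA had early hydroponic highest and terrestrial lowest, while Unigene25917_mixA and Unigene2019_mixA had terrestrial roots between the other 2 by their means. The calls of Unigene5345_mixA, Unigene1035_mixA and Unigene25917_mixA held under every alternative run.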

How the results depend on the processing

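The shares of all contigs called under the alternatives are not given, so the counts in this section describe the members alone. Against terrestrial roots the counts of members called stayed within 1.5 times under other scalings, filters and tools. Asking for a size of change lowered them: with a 1.5-fold minimum 56 in late hydroponic against terrestrial, 71 in early hydroponic against terrestrial and 3 in late against early hydroponic roots were called, and with a log2 change of at least 1, 38, 49 and 6. Leaving out each library in turn gave 118 to 134, 125 to 156 and 8 to 32, and 136 to 158 for the 3-group test. Late against early hydroponic rested most on the choice: 40 by DESeq2, 39 with length-class medians removed, 48 (22 higher, 26 lower) without late hydroponic replicate 3 and terrestrial replicate 2, and 10 higher and 8 lower by limma on log2(FPKM + 1). The cause was not tested. The members' median change against terrestrial roots was between -0.60 and -0.50 in late hydroponic and between -0.73 and -0.46 in early hydroponic roots over the 4 scalings.

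Over all contigs tested, same-numbered samples of different groups correlated at -0.0927 to 0.135 in their deviations from the group means. Differently numbered samples correlated at -0.165 to 0.126, and the ranges overlapped. The median member, however, was lowest in replicate 3 of each group. Whether the numbers pair the samples for the members was not tested. With a replicate block 137, 159 and 24 members were called in late hydroponic against terrestrial, early hydroponic against terrestrial and late against early hydroponic roots, and 94, 120 and 27 with length-class medians removed as well. Of the changes tallied for named members under the alternatives, 1325 kept their side of the threshold, 68 lost it and 47 gained it, and 0 changed sign past it. The tally did not take every comparison of every named member. The calls lost between the hydroponic stages were those of Unigene15475_mixA (adjusted p up to 0.201 by edgeR), Unigene2019_mixA (up to 0.178), Unigene31282_mixA (up to 0.132), Unigene4146_mixA (0.0561 to 0.407) and Unigene15464_mixA (0.067).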

Other observations

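Of the 202 unclustered contigs of at least 4534 bases, 2 failed the count minimum and are not members. Unigene20764_mixA (10048 bases) had 753, 65.8 and 30.9 FPKM in late hydroponic, 0.06, 0.19 and 2.46 FPKM in early hydroponic and 0.15, 0.14 and 0.13 FPKM in terrestrial roots, with 76555 counts in late hydroponic replicate 1. Unigene484_mixA (4996 bases) had 1, 0 and 0 counts in late hydroponic, 99, 260 and 290 counts in early hydroponic and 0, 1 and 0 counts in terrestrial roots. Unigene20764_mixA failed the rule of 10 counts on 7 counts in early hydroponic replicate 1, while its terrestrial counts of 16, 15 and 14 passed. Unigene484_mixA failed in the late hydroponic and terrestrial libraries. A long contig can pass the rule at a low level. Unigene23616_mixA did so with 18 and 24 counts in late hydroponic replicates 1 and 2.

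The 5 members with a within-group SD of log2 FPKM over 0.5 were Unigene23616_mixA, Unigene1361_mixA, Unigene31282_mixA, Unigene24211_mixA and Unigene5345_mixA. Unigene1361_mixA had 2.27, 3.45 and 2.83 FPKM in late hydroponic, 4.81, 4.14 and 3.88 FPKM in early hydroponic and 3.0, 0.91 and 2.49 FPKM in terrestrial roots. Unigene24211_mixA had 20.7, 18.6 and 8.95 FPKM in late hydroponic, 31.8, 32.7 and 23.5 FPKM in early hydroponic and 23.1, 44.1 and 21.6 FPKM in terrestrial roots. In both, terrestrial replicate 2 was the terrestrial library farthest from the others. These contigs were singled out after their values were seen.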
